A study of Mus musculus with 31 samples.

Results

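Accessible chromatin in repeated DNA was examined in the parental NIH-3T3 line, fibroblasts derived from mouse embryos and here free of any TF transgene. The regions were chosen by sequence and position alone. They are ATAC-seq peaks on chromosomes 1 to 19 that lie more than 1 kb from any annotated TSS, whose summit base is soft-masked (written in lower case as repeated or simple sequence) in the GRCm38 reference and whose interval is at least 50% soft-masked. Of 63456 peaks in the list, 62170 were on these chromosomes and 46355 of those were distal, that is, more than 1 kb from a TSS. A masked summit was found in 4771 distal peaks (10.3%), and 2065 of them (4.45% of the distal peaks, exact 95% interval 4.27 to 4.65%) met the limit on the interval as well. These 2065 peaks are called repeat peaks below. They were compared with the 41584 distal peaks whose summit is not masked.

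The series holds 31 ATAC-seq samples of NIH-3T3 cells, of which 26 overexpress 1 of 13 TFs and 4 carry the rtTA3G activator alone. The peaks analysed here come from the 1 parental sample, and the other 30 were not analysed here. Nuclei of 50000 cells were tagmented with 0.5 µM Tn5 and amplified by 12 cycles of PCR per the labels, which list no doxycycline for the parental line, whereas the methods give doxycycline for NIH-3T3 cells in general. With 1 library there is no replicate error, so that no test was made, peaks are not replicates, and every interval given is an exact binomial 95% interval that covers counting error only. In a bulk library, a site open in few cells and a site weakly open in all cells cannot be told apart. The label of the line was checked against promoter peaks: all 12 fibroblast markers had a peak within 1 kb of a TSS, Col1a1, Thy1 and Pdgfra among them, as did 3 of 8 epithelial markers (Krt8, Krt14 and Grhl2), 0 of 5 neuronal markers and 1 of 5 blood markers (Spi1).

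ATAC-seq marks DNA that the transposase Tn5 can reach, and distal peaks are mostly sites where sequence-specific factors keep nucleosomes away. Much of the mouse genome consists of copies of transposable elements: short interspersed elements such as B1 and B2, long interspersed elements, and elements flanked by long terminal repeats. Most copies are packed in closed chromatin, but some carry binding sites for factors. Because copies of one family share an origin, they allow related sequences with and without a site to be set side by side, though these can differ at other bases too. The heptamer TGACTCA is the site of AP-1, a dimer of FOS and JUN proteins that is active in cultured fibroblasts. The factor CTCF, which stops loop extrusion by cohesin, binds a longer motif whose core is written here as CCANNAGNNGGC (N is any base). The trimeric factor NF-Y binds the box CCAAT.

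To show what these sequences look like, windows of 50 bp to either side of the summit are given for members of several sequence families, which are groups of repeat peaks that align to one peak and are described further on. They are on the plus strand of GRCm38, and the capitals mark TGACTCA (or TGAGTCA, its reverse complement) and the CTCF core in family 1, TGACTCA in families 4 and 5, and CCAAT (or ATTGG) in families 6 and 8.
Family 1, chr13:117223124-117223224: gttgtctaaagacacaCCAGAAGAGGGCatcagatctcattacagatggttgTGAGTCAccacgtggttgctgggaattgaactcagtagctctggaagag
Family 4, chr10:39336017-39336117: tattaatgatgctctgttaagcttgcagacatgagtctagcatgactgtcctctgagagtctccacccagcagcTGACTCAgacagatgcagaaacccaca
Family 5, chr1:167425980-167426080: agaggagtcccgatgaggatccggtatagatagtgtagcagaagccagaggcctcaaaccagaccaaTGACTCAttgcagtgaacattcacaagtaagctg
Family 6, chr1:31038303-31038403: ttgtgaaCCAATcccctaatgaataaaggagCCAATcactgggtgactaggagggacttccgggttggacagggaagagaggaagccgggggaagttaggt
Family 8, chr15:57772021-57772121: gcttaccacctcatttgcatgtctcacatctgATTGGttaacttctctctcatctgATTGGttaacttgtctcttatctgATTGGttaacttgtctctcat
Family 12, chr17:31570413-31570513: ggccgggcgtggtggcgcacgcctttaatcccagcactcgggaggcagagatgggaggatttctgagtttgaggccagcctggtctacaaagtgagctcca

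Repeat peaks were lower and narrower than distal peaks with an unmasked summit. The fold enrichment at the summit divides the fragment pileup by the pileup the peak caller expected. It had a median of 4.65 (quartiles 3.68 and 6.30) in repeat peaks and 5.65 (quartiles 4.202 and 8.26) in the others. The median width was 189 bp (quartiles 138 and 286 bp) against 284 bp (quartiles 173 and 453 bp). The median summit lay under 20 fragments in repeat peaks and under 26 in the others. The lowest repeat peak had 10 fragments and the highest 4402, so that most summits rest on few fragments. A −log10 q of at least 5 was reached by 1403 of the 2065 repeat peaks (67.9%, interval 65.9 to 70.0%), below the 80.4% of all distal peaks. The pileup expected from the surroundings was within 0.02 of the background of 2.81 fragments at 42.7% of repeat peaks and at 30.8% of the others. The limit on the interval itself favours narrow peaks, since a wide peak over a short masked stretch seldom reaches 50%. The 2706 distal peaks with a masked summit that missed this limit had a median fold enrichment of 5.52 and a median width of 287 bp. These medians are close to those of peaks with an unmasked summit. The part of the limit in the differences was not tested.

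**Figure D1:**
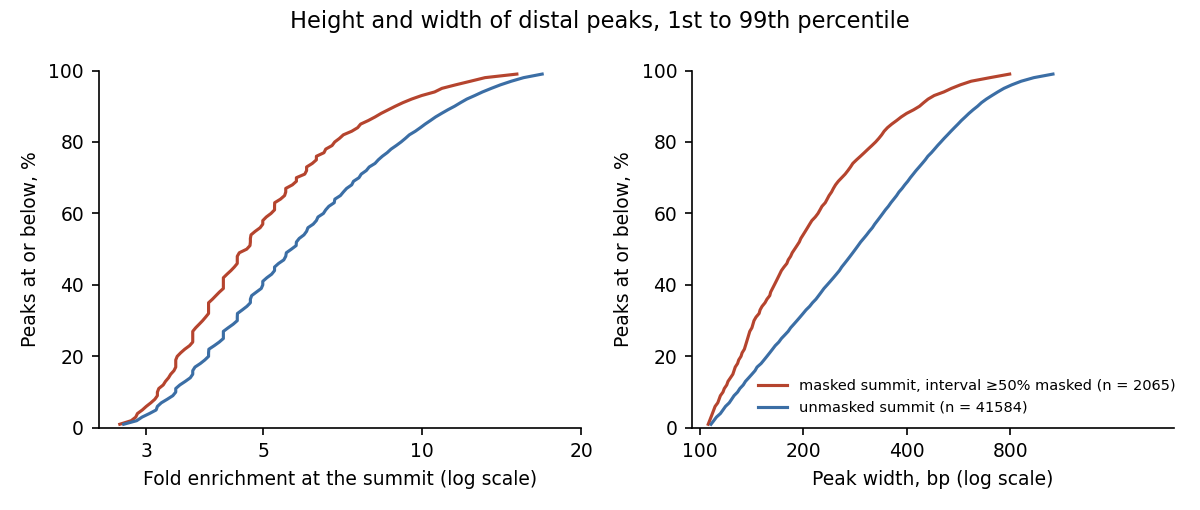
Cumulative share of distal peaks (y axis, %) against fold enrichment at the summit (left, log scale) and peak width in bp (right, log scale), from the 1st to the 99th percentile, for the 2065 repeat peaks and the 41584 distal peaks with an unmasked summit. The curve of the repeat peaks lies to the left in both panels, with medians of 4.65 against 5.65 and 189 against 284 bp. The limit on the masked share of the interval favours narrow peaks.

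More repeat peaks than other distal peaks lay between genes. The summit was intergenic in 1128 repeat peaks (54.6%, interval 52.4 to 56.8%), in an intron in 898 (43.5%) and in an exon in 39 (1.89%). The same shares were 46.4, 49.6 and 4.00% for distal peaks with an unmasked summit. The distance to the nearest TSS was alike, with a median of 11255 bp in repeat peaks and 12331 bp in the others. Another peak lay within 1 kb of 13.0% of repeat peaks and of 15.1% of the others. Repeat peaks made up 3.51% of the distal peaks of chromosome 7 and 5.95% of those of chromosome 5, the lowest and the highest share. Of the bases more than 1 kb from a TSS, 34.3% were soft-masked, against 10.3% of the distal summits, and against 5.46% of the summits of peaks within 1 kb of a TSS.

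The masked stretch around the summit was usually short. Its median length was 111 bp (quartiles 63 and 198 bp), and it was under 60 bp in 23.5% of the repeat peaks and over 300 bp in 12.5%. The summit lay within 10 bp of an edge of the stretch in 25.6% of the repeat peaks, and 220 of them (10.7%) were masked over their whole interval. Simple tandem repeats were rare: 28 repeat peaks (1.36%) had in their summit window a run of at least 20 bp with a period of 1 to 6 bp, compared with 9.61% of masked windows on a grid across the genome. The windows held few CpG dinucleotides, with none in 51.3% of repeat peaks and in 32.04% of the others, while the median GC content was 48.5% in both.

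Most repeat peaks stood on sequence that was at least in part single-copy. The 31-mers of each summit window were counted in the genome on both strands. In the median repeat peak, 77.5% of them occurred once (quartiles 52.1 and 97.2%), and in 414 repeat peaks (20.05%) all did. In 36 repeat peaks (1.74%) no 31-mer of the window was single-copy. Masked windows on the grid had no single-copy 31-mer in 25.3% of cases. They had single-copy 31-mers throughout in 17.9%, near the share of repeat peaks. Distal peaks with an unmasked summit had single-copy 31-mers throughout in 95.5%. The authors kept only uniquely aligned reads, so copies without unique sequence could receive few fragments. Its part in these shares was not tested.

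The AP-1 motif was found in a similar share of repeat peaks and other distal peaks. TGACTCA occurred, on either strand, within 50 bp of the summit of 534 repeat peaks (25.9%, interval 23.98 to 27.8%) and of 10955 distal peaks with an unmasked summit (26.3%, interval 25.9 to 26.8%). In windows 500 bp to either side it occurred in 1.69 and 1.84%. It was rarer in repeats at large, with 0.796% of masked and 1.81% of unmasked grid windows. The share at summits was thus 32.5 times that of the grid for repeat peaks and 14.5 times for the others. Repeat peaks with TGACTCA and no CTCF core were the highest, with a median fold enrichment of 5.17 (n = 496) against 4.46 for those with neither motif (n = 1328). Distal peaks with an unmasked summit likewise had 6.49 with TGACTCA and 5.44 with neither motif.

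The CTCF core was found in 241 repeat peaks (11.7%, interval 10.3 to 13.1%) and in 6.14% of distal peaks with an unmasked summit (interval 5.92 to 6.38%), and these intervals did not overlap. Flanking windows of repeat peaks held it in 0.823% and masked grid windows in 0.942%. Repeat peaks with a CTCF core and no TGACTCA were narrow, with a median width of 140 bp (n = 203). In distal peaks with an unmasked summit it was 188 bp with a CTCF core and 282 bp with neither motif. The RUNX motif TGTGGTT, bound by runt-domain factors, stood in 11.4% of repeat peaks and 4.73% of the others. CCAAT stood in 20.4 and 13.2%, but also in 18.5% of masked grid windows. The ETS motif CCGGAAG was at 1.36 and 0.678%. Lower in repeat peaks were the TEAD motif CATTCC, bound by the partners of YAP and TAZ, at 6.15 against 9.79%, and GGGCGG, bound by SP and KLF factors, at 2.23 against 3.605%. TGACGTCA, the site of CREB and ATF factors, was found in 3 repeat peaks.

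**Figure D2:**
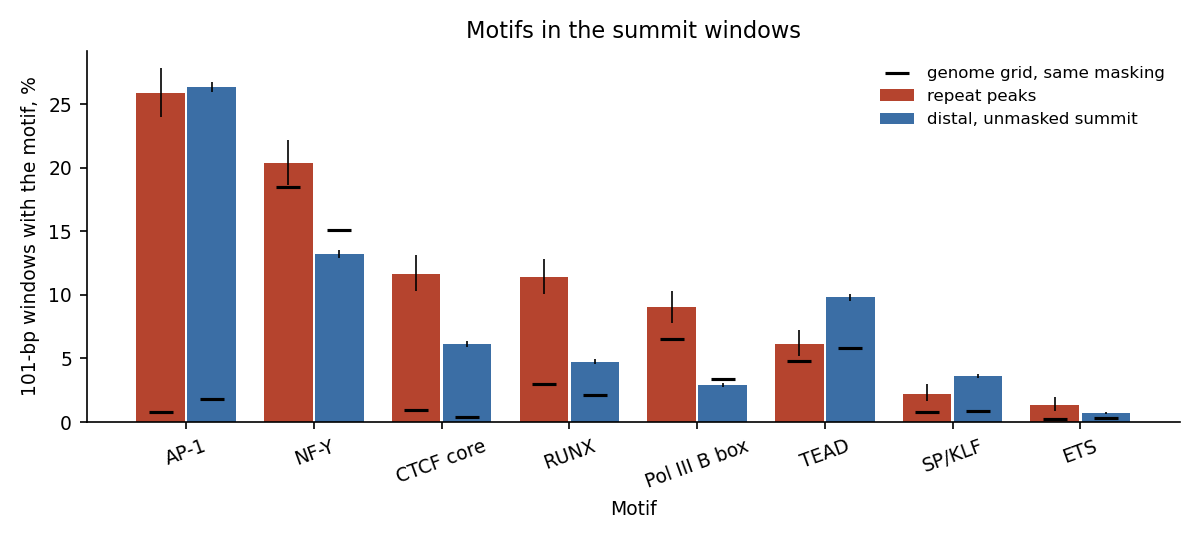
Share of summit windows (50 bp to either side) that hold each motif on either strand (y axis, %), for repeat peaks and for distal peaks with an unmasked summit, with exact 95% intervals as error bars and the share in masked or unmasked grid windows as black dashes. AP-1 stands at 25.9 and 26.3%, far above both dashes, while CTCF and RUNX are higher in repeat peaks and CCAAT is near its dash.

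TGACTCA and the CTCF core were both most frequent within 50 bp of the summit, with different profiles at its centre. In 20-bp bins, TGACTCA was centred in the middle bin in 7.85% of repeat peaks (interval 6.72 to 9.09%) and in 6.15 and 6.05% in the bins beside it. Distal peaks with an unmasked summit had 5.60% in the middle bin (interval 5.38 to 5.83%) and 6.50 and 6.94% beside it. The CTCF core was in the middle bin of 2.28% of repeat peaks (interval 1.68 to 3.02%) and in the next bins of 2.47 and 2.76%. In the others the middle bin held it in 0.568% (interval 0.498 to 0.644%) and the next bins in 1.37 and 1.41%.

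**Figure D3:**
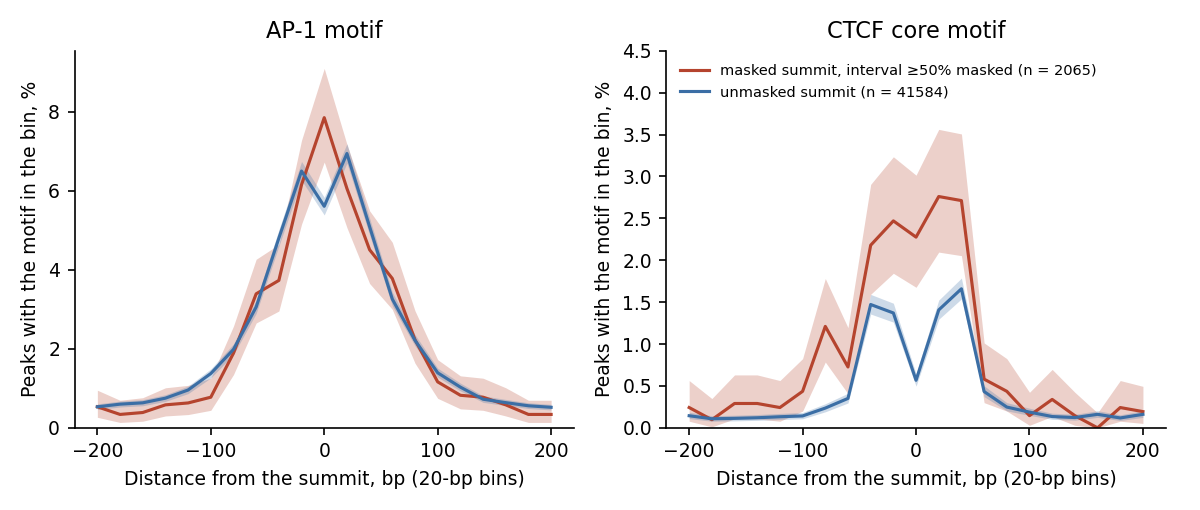
Share of peaks with the AP-1 motif (left) or the CTCF core (right) in each 20-bp bin (y axis, %) against the distance of the bin from the summit in bp, with exact 95% intervals as bands. The AP-1 motif is highest in the central bin in repeat peaks (7.85%), while in distal peaks with an unmasked summit the central bin (5.60%) lies below the bins beside it, and the CTCF core there drops to 0.568%.

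The higher shares of CTCF and RUNX came largely from 1 sequence family. Family 1 held 152 of the 241 repeat peaks with a CTCF core and 171 of the 235 with TGTGGTT. Peaks outside family 1 can still hold related sequence, as in family 40 (further on). Among the 1715 repeat peaks outside family 1, the CTCF core was found in 5.19% (interval 4.19 to 6.35%), TGTGGTT in 3.73% and TGACTCA in 23.4% (interval 21.4 to 25.5%). That interval lies below the 25.9 to 26.8% of distal peaks with an unmasked summit, so the similar share of TGACTCA over all repeat peaks includes the 38% of family 1.

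Seen from the genome, a motif in a repeat was under a peak less often than the same motif elsewhere. Outside 1 kb of a TSS, chromosomes 1 to 19 held 69629 masked TGACTCA sites, of which 2458 (3.53%, interval 3.39 to 3.67%) were under a distal peak. Of 302785 unmasked sites, 20577 (6.80%, interval 6.71 to 6.89%) were. For the CTCF core the gap was wider: 863 of 69969 masked sites (1.23%) and 3499 of 53597 unmasked sites (6.53%) were under a distal peak. Masked sequence thus held more than 50% of the CTCF cores of this part of the genome. The lower share of single-copy 31-mers in masked sequence goes with these lower shares, and its part in them was not tested.

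Repeat peaks fell into families of related sequence. When windows of 100 bp to either side of the summits were aligned with each other, 1734 repeat peaks (84.0%, interval 82.3 to 85.5%) were linked into groups of at least 5, but 1306 of these were chained into a single group. The next groups had 67, 56, 31 and 29. The highest peaks of these 5 groups, in this order, were chr4:17232778-17233370 (fold enrichment 19.4), chr7:72096660-72097400 (13.9), chr17:38602042-38602657 (11.8), chr6:72467054-72467606 (13.1) and chr2:34528409-34529109 (10.9). Families were therefore built, after these values were seen, around the peak with the most links, with the peaks that align to it, and then again among the rest. This gave 58 families of at least 5 members with 1513 repeat peaks (73.3%), of which 33 had at least 10, and left 552 outside. Family 1 was by far the largest with 350 members (16.9% of the repeat peaks), followed by family 2 with 135, families 3 and 4 with 71 each, family 5 with 63 and family 6 with 61. For the 33 families of at least 10, the genome was searched for copies of at least 80 bp. A copy was under a peak if its aligned position lay within any distal peak, a repeat peak or not. The summit of that peak could lie elsewhere.

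The number of copies and the share under a peak varied over orders of magnitude. Family 12 had 190584 copies, of which 313 (0.164%, interval 0.147 to 0.183%) were under a distal peak. Its 36 members all matched B1_Mus2, a B1 element that RefSeq annotates at chr7:103823699-103823836. In all, 93 repeat peaks matched that element, with a median identity of 85.1% and a median length of 71 bp. Family 16, with 86435 copies, had 0.0463% under a peak, and family 7, with 41635 copies, had 0.0769%. At the other end, family 6 had 1106 copies and 11.8% of them under a peak (interval 9.91 to 13.8%), and family 5 had 3443 copies and 5.87%. Families 24 and 25 had 16.7 and 22.5% of their 2210 and 1781 copies under a peak, although only 15 and 14 repeat peaks belonged to them, and their members were low, with a median fold enrichment of 3.32 and 4.31. The base at the aligned position was masked in 51.4% of the copies of family 24 and in 75.4% of those of family 25, and 174 and 340 copies lay in repeat peaks.

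**Figure D4:**
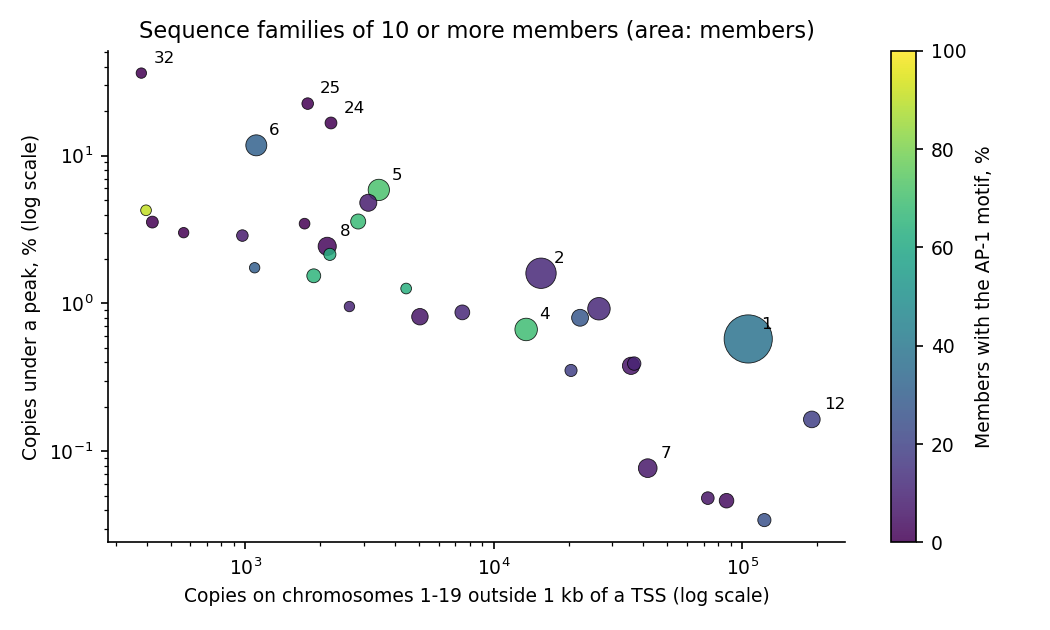
Number of genomic copies (x axis, log scale) and share of these under a distal peak in % (y axis, log scale) for the 33 families of at least 10 repeat peaks, with the area of a point set by the number of members, its color by the share of members with the AP-1 motif, and numbers naming families of the text. Family 12 lies at the lower right with 190584 copies and 0.164%, and family 32 at the upper left with 381 copies and 36.2%.

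Family 1 carried the sites of several factors. The bases that its members share are those known as the B2 element, a name given here from general knowledge of its sequence, since no annotation of repeats was used. Its members had a median fold enrichment of 4.36, ranging from 2.67 to 18.5, and the highest was chr11:54140050-54140654, 12447 bp from a TSS of P4ha2. TGACTCA was found in 133 members (38%) and the CTCF core in 152 (43.4%). Among all 105684 copies of the family, the core stood within 50 bp of the aligned position in 42262 and TGACTCA in 3908. The share of the core in members was thus near that in all copies, while that of TGACTCA was far above it. Of its 105684 copies, 608 (0.575%, interval 0.531 to 0.623%) were under a distal peak, and 344 of these lay in repeat peaks. Copies with a CTCF core within 50 bp of the aligned position were under a peak in 320 of 42262 cases (0.757%, interval 0.677 to 0.844%), and copies without in 288 of 63422 (0.454%, interval 0.403 to 0.510%).

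The 7 bases at the place of the AP-1 motif divided the copies of family 1 more sharply. TGGCTCA was the most common sequence there, in 69349 copies, of which 288 (0.415%, interval 0.369 to 0.466%) were under a peak. TGACTCA stood in 3597 copies, of which 159 (4.42%, interval 3.77 to 5.14%) were. The 4 next most common sequences, in 3068 to 3674 copies each, were under a peak in 0.314 to 0.371%. Both kinds of copy differ in how unique they are: the 31-mer at the site was single-copy in 17.98% of copies with TGGCTCA and in 48.0% of those with TGACTCA. Among copies with a single-copy 31-mer, the shares were 93 of 12466 (0.746%, interval 0.603 to 0.913%) and 88 of 1727 (5.10%, interval 4.11 to 6.24%). Below are the 3 copies with TGACTCA that lay under the highest peaks, with fold enrichments of 16.7, 13.8 and 13.6, and 2 copies with TGGCTCA outside peaks that were the most similar to the family's central peak. The peaks over the 3 copies with TGACTCA are not members of family 1. All copies shown have a single-copy 31-mer and are written on the minus strand, and the capitals mark the aligned 7 bases.
Under a peak, chr17:42990133-42990183: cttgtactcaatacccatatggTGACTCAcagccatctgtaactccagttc
Under a peak, chr9:78601744-78601794: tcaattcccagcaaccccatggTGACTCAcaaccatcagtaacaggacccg
Under a peak, chr2:115971448-115971498: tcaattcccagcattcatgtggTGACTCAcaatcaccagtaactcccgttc
Outside peaks, chr17:71611720-71611770: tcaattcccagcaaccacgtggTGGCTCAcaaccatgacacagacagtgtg
Outside peaks, chr8:34722039-34722089: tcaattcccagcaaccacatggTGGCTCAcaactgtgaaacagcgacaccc

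Family 4 showed the same contrast from another starting sequence. TGACTCA was in the summit window of 49 of its 71 members (69.0%). In the genome the most common sequence at the aligned site was TGACTGA, in 3125 copies, of which 1 (0.0320%, interval 0.000810 to 0.178%) was under a distal peak. TGACTCA stood in 1768 copies, and 71 of these (4.02%, interval 3.15 to 5.04%) were under a peak. Among copies with a single-copy 31-mer the shares were 1 of 2098 and 39 of 1302. Over all copies with 7 aligned bases, 72 of 1795 with TGACTCA or TGAGTCA and 15 of 10593 with other sequences were under a peak. The copies printed next lay under peaks with fold enrichments of 13.7, 12.1 and 11.9 or outside peaks. The peak of the family 4 window given above also holds TGACTCA and was higher, at 15.98, but is not printed again. Apart from it, the copies were chosen as before.
Under a peak, chr1:56681436-56681486, minus strand: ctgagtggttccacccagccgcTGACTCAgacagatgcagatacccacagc
Under a peak, chr3:154273472-154273522, minus strand: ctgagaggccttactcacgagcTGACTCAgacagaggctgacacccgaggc
Under a peak, chr17:52692171-52692221, plus strand: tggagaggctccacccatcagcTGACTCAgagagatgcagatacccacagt
Outside peaks, chr2:50007520-50007570, minus strand: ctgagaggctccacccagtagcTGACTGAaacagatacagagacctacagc
Outside peaks, chr11:48005785-48005835, minus strand: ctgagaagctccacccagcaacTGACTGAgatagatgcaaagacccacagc

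In family 5 the AP-1 motif was itself the most common sequence. TGACTCA stood in 1448 copies, of which 169 (11.7%, interval 10.1 to 13.4%) were under a distal peak, and TGAGTCA in 79, of which 13 were. Each of the other 4 sequences among the 6 most common stood in 71 to 132 copies, with 0 to 5 of them under a peak. All sequences other than the motif together had 16 of 1567 copies (1.021%, interval 0.585 to 1.65%) under a peak. CCAAT was held by 37 of its 63 members (58.7%). The share was similar in its copies at large, where 1911 of 3443 held CCAAT within 50 bp of the aligned position. In the first copy below, as in the family 5 window given above, it overlaps the motif by its last base. In the other copies below it does not. The highest member of family 5 had a fold enrichment of 13.9, so the peaks over the copies below are not members.
Under a peak (fold enrichment 16.5), chr10:30729983-30730033, plus strand: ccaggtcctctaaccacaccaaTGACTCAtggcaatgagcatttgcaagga
Under a peak (fold enrichment 15.7), chr8:79256375-79256425, minus strand: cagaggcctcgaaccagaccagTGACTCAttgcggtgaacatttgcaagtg
Outside peaks, chr7:58443574-58443624, plus strand: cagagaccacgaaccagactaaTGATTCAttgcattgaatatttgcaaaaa

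A site of the motif could be aligned in 5 other families. In family 18 only 3 copies had the motif there, of which 2 were under a peak, against 90 of 23692 with other sequences, and it is not considered further. The shares of the remaining 4 were as follows. With TGACTCA or TGAGTCA at the aligned site, 6.78% of family 14 copies were under a peak, 6.30% of family 17, 6.51% of family 27 and 6.94% of family 33. With other sequences the shares were 1.76, 0.846, 1.76 and 0.896%. Over all copies, the intervals of both classes overlapped in family 27 and not in the other 3, and family 33 rests on 10 copies with the motif under a peak. In family 14, TGATTCA had a share like that of TGACTCA, with 10 of 137 copies (7.30%) against 73 of 1078 (6.77%). In family 33, TGAATCA had 8 of 97 (8.25%) and TGACTCA 8 of 134 (5.97%). Families and sites were chosen from the repeat peaks themselves, so these shares describe the copies and are not independent of that choice. Without the copies that lie in repeat peaks, the shares with and without the motif were 1.42 and 0.204% in family 1, 0.692 and 0.0850% in family 4, 8.50 and 0.895% in family 5 and 4.97 and 1.47% in family 14, with intervals that did not overlap. In the same way they were 0.889 and 0.197% in family 17 (intervals 0.108 to 3.17% and 0.0406 to 0.573%), 1.95 and 1.18% in family 27 and 3.597 and 0.562% in family 33 (intervals 1.18 to 8.19% and 0.183 to 1.31%), and the intervals overlapped in these 3 families.

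**Figure D5:**
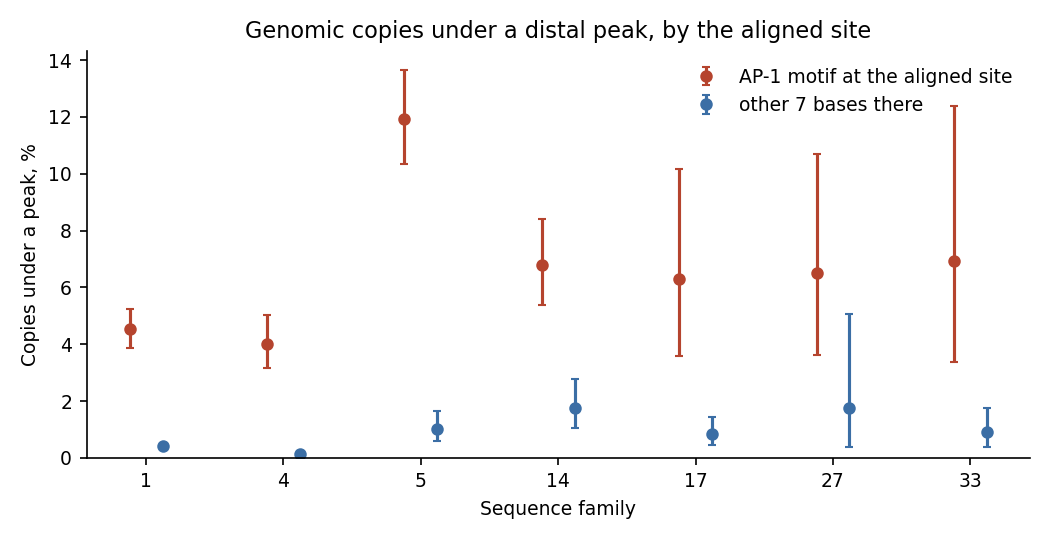
Share of genomic copies under a distal peak (y axis, %) in 7 sequence families (x axis), for copies with the AP-1 motif at the aligned site and for copies with any other 7 bases there, with exact 95% intervals. In family 5 the values are 11.9 and 1.021%, in family 1 they are 4.52 and 0.424%, and the intervals overlap in family 27. Family 18, with 3 copies that have the motif, is not drawn.

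CCAAT was frequent in several families, with and without a high share of the AP-1 motif. It was in at least 60% of the members of 6 of the 33 families, among them family 27, in which 10 of 11 members held TGACTCA. Family 6 had CCAAT in 57 of 61 members (93.4%), TGACTCA in 19 (31.1%) and the ETS motif in 22, and its median fold enrichment was 6.57. Of its copies, 124 of 938 with CCAAT (13.2%, interval 11.1 to 15.6%) and 6 of 168 without (3.57%, interval 1.32 to 7.61%) were under a distal peak, and 59 of all 130 lay in repeat peaks. As for AP-1, these shares are not independent of the choice of families. In family 8, 43 of 44 members held CCAAT, often several times in a row as in the window given above, and the masked stretch had a median length of 325.5 bp. Copies of family 8 at large held CCAAT in a like share, 2098 of 2134 within 50 bp of the aligned position. Of its 2134 copies, 52 were under a distal peak, and 50 of these lay in repeat peaks. Only 14.8% of its copies had a single-copy 31-mer there.

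The CTCF core was also frequent in some small families. Among the families of at least 10 members other than family 1, at least 40% held it in 2, with 18 of the 27 members of family 15 and 8 of the 10 of family 31. Among the smaller families, all 8 members of family 40 held it, as did 3 of the 6 of family 49. The Ppp1r42 window below, of family 40, resembles the family 1 window above from its core on. An element can thus be split over families. In family 31, 22 of 1021 copies with the core (2.15%, interval 1.36 to 3.24%) and 3 of 1601 without (0.187%, interval 0.0387 to 0.547%) were under a distal peak. In family 15 the shares were 1.63 and 0.622%. Repeat peaks held 11 of the 25 copies of family 31 under a peak and 26 of the 65 of family 15. These shares are therefore not independent of the choice of families. The highest repeat peak with a CTCF core was chr16:87405083-87405414 in an intron of Ltn1, with 54 fragments and a fold enrichment of 14.2. The second was chr1:10007354-10007522, a member of family 40 in an intron of Ppp1r42, 1716 bp from its TSS, with 49 fragments and a fold enrichment of 11.3. Their summit windows follow, with the core or its reverse complement in capitals.
Ltn1 intron, chr16:87405150-87405250: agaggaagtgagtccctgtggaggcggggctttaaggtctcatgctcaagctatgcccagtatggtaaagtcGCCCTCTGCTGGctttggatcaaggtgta
Ppp1r42 intron, chr1:10007364-10007464: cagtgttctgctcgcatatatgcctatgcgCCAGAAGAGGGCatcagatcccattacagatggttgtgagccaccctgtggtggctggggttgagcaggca

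The highest repeat peaks of all were of another kind. Of the 5 with the highest fold enrichment, 4 belonged to family 32. It had 10 members, with 28 to 4402 fragments at the summit (median 103.5), a median fold enrichment of 18.5 and none of the AP-1, CTCF or CCAAT motifs. Its bases are those known as the major satellite of pericentromeric heterochromatin, again from general knowledge of the sequence. The first, chr9:35305214-35305593 in an intron of Gm33838, had 4402 fragments where 83.7 were expected. Its −log10 q was 5698 and its fold enrichment 52.0. The second, chr12:3109863-3110114, is intergenic and had 764 fragments and a fold enrichment of 44.3. The third, chr4:70378118-70378250 in an intron of Cdk5rap2, had 197 fragments and a fold enrichment of 28.4. In the genome, 138 of the 381 copies of family 32 (36.2%) were under a peak, but 134 of these lay in repeat peaks, of which the family has 10. The median share of single-copy 31-mers in its members was 84.5%. The counts cover the assembled chromosomes, so copies missing from the assembly were not counted. The part of such copies in these pileups was not tested. Without the 10 peaks of family 32 the highest repeat peak was chr3:35680490-35680942, an intergenic peak with 105 fragments and a fold enrichment of 20.8. The windows of the first and second peak show the repeated stretches rich in A.
First, chr9:35305406-35305506: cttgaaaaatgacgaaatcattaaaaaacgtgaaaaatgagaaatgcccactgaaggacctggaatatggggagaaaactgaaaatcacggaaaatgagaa
Second, chr12:3109991-3110091: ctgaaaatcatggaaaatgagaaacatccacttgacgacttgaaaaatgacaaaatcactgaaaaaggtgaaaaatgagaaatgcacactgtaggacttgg

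By −log10 q, chr13:119596021-119602983 in an intron of Tmem267 and chr11:3100305-3104755 followed the 3 satellite peaks, with 173 and 169, and the latter belongs to family 32 too. They were also unusually wide, with 6963 and 4451 bp. The expected pileup was over 3 times the background at 53 repeat peaks (2.57%) and at 5.33% of distal peaks with an unmasked summit.

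The highest repeat peaks with TGACTCA within 25 bp of the summit belonged to several families or to none. The first was chr1:58374168-58374625 in an intron of Aox2, a member of family 27, with 102 fragments where 5.48 were expected and a fold enrichment of 15.9. It was followed by chr13:58298595-58299259, with 68 fragments and a fold enrichment of 14.6. The summit of that peak was exonic and lay within both Gm26555 and Kif27. A member of family 5 in an intron of Mctp2, chr7:72096660-72097400, had 90 fragments and 13.9. An intergenic peak at chr14:25254653-25255365 had 77 and 13.7, and another member of family 5, chr2:122396118-122396517, had 60 and 13.3. Single-copy 31-mers made up 57.7 to 100% of these windows, and the masked stretch at the summit measured 21 to 282 bp.

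The genes near repeat peaks were counted in lists. Of all 20780 protein-coding genes on chromosomes 1 to 19, 2793 (13.4%, interval 13.0 to 13.9%) had one within 50 kb of a TSS. Of 35 matrix and contractile genes 3 did, of 18 genes of AP-1, TEAD and their partners 2, of 14 epithelial genes 1 and of 11 neuronal genes 0, and the intervals of these 4 shares all include 13.4%, so that no list could be told apart from all genes. Vim, the gene of the intermediate filament vimentin, had a family 16 peak of 69 fragments 4496 bp from its TSS. Twist2, a mesenchymal TF, had a family 1 peak of 13 fragments in its intron at 6661 bp, and Ccn2, a matricellular protein, one of 13 fragments at 40503 bp. Tead4 had a family 15 peak of 25 fragments at 7696 bp. Wwtr1, the gene of TAZ, had a family 18 peak of 18 fragments at 15358 bp. Grhl2, an epithelial TF, had a peak of 43 fragments holding TGACTCA in its intron.

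Peaks beyond the limit on the interval were higher and wider. The 2706 distal peaks with a masked summit and under 50% of the interval masked had a median fold enrichment of 5.52 and a median width of 287 bp, against 4.65 and 189 bp in repeat peaks. The 3 repeat peaks nearest the limit on the interval were masked over 50.0% each and had fold enrichments of 12.3, 6.04 and 3.15. The 3 just outside, masked over 49.8 to 49.9%, had 14.5, 12.0 and 5.78. At the limit of 1 kb from a TSS, those just inside lay at 1003, 1003 and 1007 bp with fold enrichments of 6.74, 4.92 and 3.94, and those just outside at 995, 995 and 983 bp with 7.62, 3.22 and 3.28.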

How the data were processed

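ATAC-seq of parental NIH-3T3 cells was analysed from 1 list of peaks. The authors aligned 75-nucleotide paired-end reads to mm10 (STAR 2.5.3a), kept unique alignments, removed duplicates (Picard) and called peaks on whole fragments (MACS2 2.1.1.20160309), as the methods and the submitters' processing notes give it. A correction for the offset of the Tn5 cut is not described. The methods for ChIP-seq also describe removal of peaks over input peaks or blacklisted regions. Whether this list was filtered in that way was not checked. The deposited fold enrichment is a ratio at the summit, pileup plus 1 over expected pileup plus 1. The deposited −log10 p and −log10 q belong to the same position, and the deposited score was not used. The number of reads of the library is unknown from the list. Each pileup was obtained by solving for the pair of pileups that gives the deposited −log10 p and fold enrichment, and 99.997% came within 0.02 of a whole number. The solver was checked on simulated data.

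Coordinates are those of mm10, counted from 1, and the sequence and soft-masking are those of the RefSeq copy of GRCm38, with TSSs from GENCODE M21. How that copy was masked is not given in the sources used here. A grid of windows of 50 bp to either side, every 5000 bp outside 1 kb of a TSS, gave the genome's shares, and 1 window every 50000 bp the 31-mer counts. Windows were aligned with BLAST 2.17.0 (blastn task, links of at least 80 bp at an e-value of 1e-10). Scripts ran under Python 3.11.15 with numba 0.67.0, networkx 3.6.1, NumPy 2.4.6, SciPy 1.17.1, pandas 2.3.3 and matplotlib 3.10.9.

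The regions, gene lists and motifs were chosen with earlier results of these data known. Named by rule were the 5 peaks highest in fold enrichment and in −log10 q, the 3 on each side of each limit, the highest 5 with TGACTCA within 25 bp of the summit and 3 with a CTCF core, the largest families and listed genes with a repeat peak within 50 kb. The count for the list of blood genes is not reported here. Other families, and peaks in them, were picked with their values known. The alternatives changed the threshold (a q of 0.01, a q of 1e-05 or 5-fold enrichment), the limits on masking and distance, the windows, the links and k (24-mers).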

Additional observations from a re-analysis of the deposited data

How the results depend on the processing

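With 1 library, no replicate could be left out, and no paired analysis was possible because only 1 sample was analysed. Results were recomputed under the alternatives that bear on them, 68 values for 18 results, with 1 alternative for each share of genomic sites or copies, and 23 stayed within the main value's exact 95% interval. The share of distal peaks that are repeat peaks (4.45%) was 3.76% at a q of 1e-05, 3.18% at a fold enrichment of at least 5, 1.68% with at least 80% of the interval masked and 10.3% with a masked summit alone. In the same order of settings, the median fold enrichment (4.65) was 5.52, 6.78, 4.22 and 5.06, and the median width (189 bp) was 227, 282, 161 and 234 bp.

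The share with TGACTCA (25.9%) was 29.2% at a q of 1e-05, 31.5% at a fold enrichment of at least 5, 21.8% with 80% of the interval masked, 14.8% within 25 bp and 36.5% within 100 bp of the summit, and 28.2% among repeat peaks with at least 90% single-copy 31-mers. The share with a CTCF core (11.7%) was 10.3% at a fold enrichment of at least 5, 16.9% with 80% masked, 7.84% with a masked summit alone, 9.04% over 5 kb from any TSS, 4.02 and 15.3% within 25 and 100 bp of the summit, and 13.4% among the single-copy repeat peaks. The share in an intron (43.5%) was 46.0% with 80% masked, 46.2% with a masked summit alone and 40.1% over 5 kb from any TSS. The share with single-copy 31-mers throughout (20.05%) was 7.45% with 80% masked, 51.2% with a masked summit alone and 3.00% with 24-mers. The share in a group of related sequence (84.0%) was 81.0% at a fold enrichment of at least 5, 85.9% with 80% masked, 52.6% with a masked summit alone, 79.6% over 5 kb from any TSS, 89.9% with links of 60 bp at 1e-05, 69.6% with links of 100 bp at 1e-20 and 73.3% with families built around 1 peak.

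Counting only sites within 50 bp of a summit, 2.02% of masked and 4.03% of unmasked TGACTCA sites were in a distal peak, and 0.839 and 4.69% of CTCF cores, so that masked sites stayed below unmasked ones. With copies that have a single-copy 31-mer, the shares of family 1 were 5.29% with TGACTCA or TGAGTCA and 0.598% with other sequences, and the share of family 4 with the motif was 3.01%. The single-copy settings and the families built around 1 peak were chosen after seeing the data. Depth limits the weakest peaks, at 10 fragments, and the absence of a peak at a copy does not show that it was closed.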
